A study of Mus musculus with 8 samples.

Results

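Genes of the receptors that carry newly made proteins out of the endoplasmic reticulum (ER) were followed in mouse pancreas with and without Sel1L, 10 in all: 5 genes of the p24 family (Tmed2, Tmed3, Tmed9, Tmed10 and Tmed11), the lectin receptor genes Lman1 and Lman2, the Lman1 partner Mcfd2, and the receptor genes Surf4 and Ergic3. They were listed by name, with earlier results of these data already known, and all 10 were among the 18820 genes tested. A gene was represented by an array feature annotated with that gene symbol alone, and by the brightest one where a gene had several, which left 10 of 13 features. Pancreas RNA was hybridised to 8 arrays, 4 per genotype, and the single comparison asks what loss of Sel1L, a partner of the ubiquitin ligase Hrd1 in ER-associated degradation, does to gene expression. Mice of both groups carried 2 copies of Sel1l with a floxed exon 6 on a background labelled C57BL/6J, derived from ES cells of C57BL/6N and freed of the targeting cassette with a FLPe deleter, were between 8 and 20 weeks old and received tamoxifen (5 mg/ml, at 5 μl/g body weight) on each of 3 days, per the labels' protocols. The knockout group alone carried an actin-promoter driven fusion of the estrogen receptor with Cre recombinase (ERCre), and its ERCre-negative littermates are the group labelled wild type. The promoter is not restricted to the pancreas and the controls had no Cre, so loss of Sel1L in pancreas, loss of it in other tissues and activity of Cre cannot be told apart. The labels number the samples without saying that each is a separate animal, so the spread that the p-values measure may be a technical one.

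Proteins leave the ER in vesicles with a COPII coat, and a receptor that spans the membrane can link soluble cargo to that coat. Members of the p24 family are small membrane proteins that assemble with one another, cycle between ER and Golgi, and carry proteins with a glycosylphosphatidylinositol (GPI) anchor among others; the family is divided into alpha (Tmed4, Tmed9 and Tmed11), beta (Tmed2), gamma (Tmed1, Tmed3, Tmed5, Tmed6 and Tmed7) and delta (Tmed10) members. Lman1 binds mannose-rich glycans and works together with the calcium-binding protein Mcfd2, for example in the secretion of coagulation factors V and VIII. The acinar cell of the pancreas sends a very large flow of digestive enzymes out of the ER.

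On the arrays, Sel1l itself was 12.38 ± 0.0105 in wild type and 11.62 ± 0.114 in knockout samples on the log2 scale (SD, n = 4 each), a difference of -0.76 (SE 0.0788, limma adjusted p = 0.000196). Which of its probes lie in the floxed exon is not given in the sources used here. Of all genes tested, 28.7% were called, meaning a Benjamini-Hochberg adjusted p under 0.05 in limma; 16.1% were called higher and 12.6% lower in the knockout. Centring each array on its median moved the median difference of all genes from -0.04 to -0.14, and the share of calls that were higher from 56% to 31.8%. Acinar markers defined the tissue, with Cpa1 and Ctrb1, genes of digestive enzymes, at 13.93 and 14.08 in wild type where the highest value on any array was 14.37. Wild type replicate 2 stood apart: its mean over the 11 macrophage markers was 6.10 against 7.72 to 8.43 on the other wild type arrays, and over the 9 markers of stellate cells and fibroblasts 7.07 against 8.29 to 8.67.

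The cargo receptors did not all move one way in the knockout. Tmed9 and Mcfd2 rose, Tmed11 and Ergic3 fell, and the other 6 members (Tmed2, Tmed3, Tmed10, Surf4, Lman1 and Lman2) did not pass the test. The 4 calls among 10 members compare with a background of 28.7%, the 2 rises with 16.1% and the 2 falls with 12.6%. Groups did not overlap for 5 members, the 4 called and Lman2, against 32.2% of all genes. The median difference over the members was 0.10, against -0.04 over all genes tested, and single differences ran from -1.16 to 1.11 on the log2 scale. All 10 members were among the 9410 genes above the median level, whose median difference was 0.13. Tested by themselves, 4176 of those genes were called, 3013 of them higher, and 5 of the members, 3 of them higher. In bulk tissue, fewer cells that express a gene and less of its RNA per cell cannot be told apart.

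**Figure D1:**
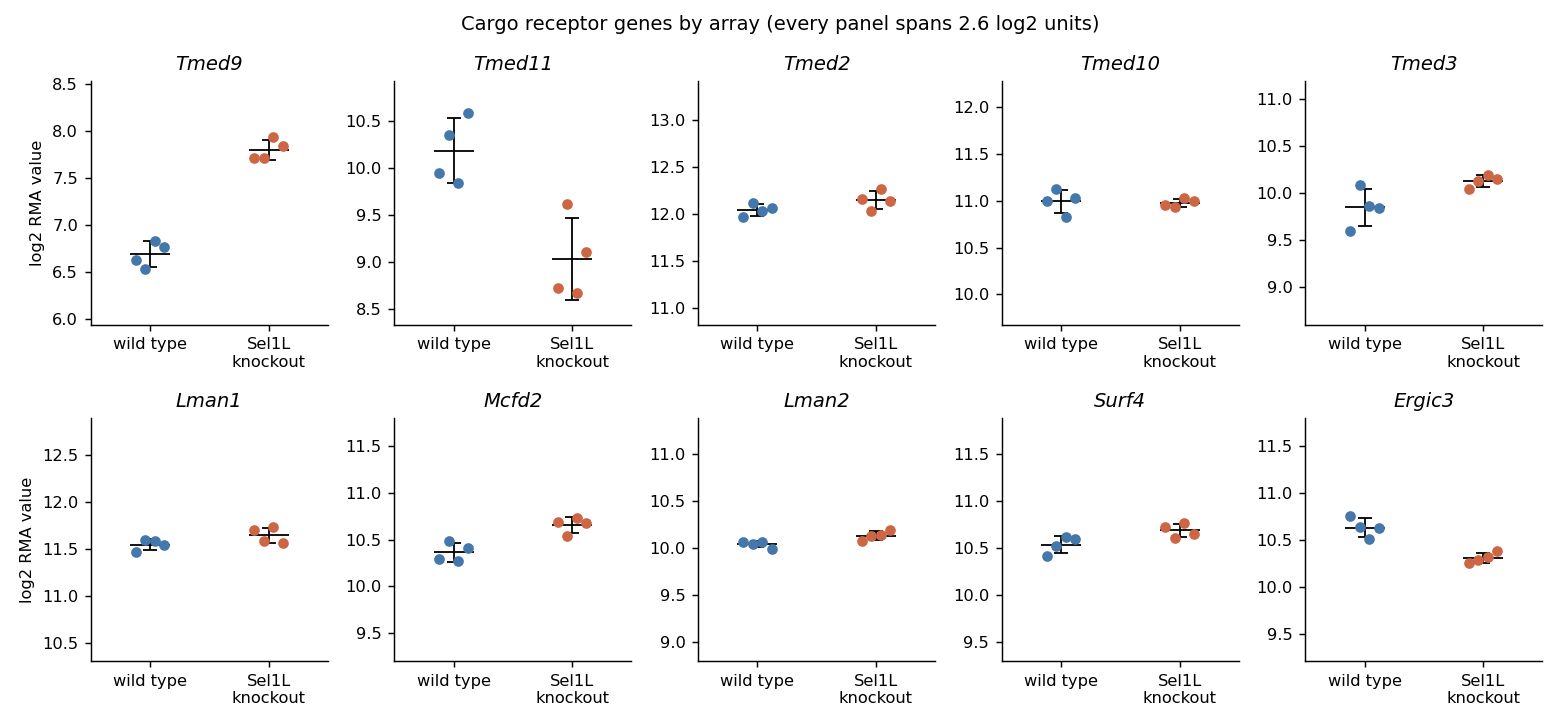
Log2 RMA values of the 10 cargo receptor genes on each array, wild type in blue and Sel1L knockout in orange, with the mean and SD (n = 4 each); every panel has an axis of the same length, so distances within panels can be compared but levels between panels cannot. Tmed9 lies higher by 1.11 and Tmed11 lower by 1.16 in the knockout samples, while Tmed10 differs by -0.02.

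Among the members called, 3 had a promoter entry in RefSeq (GRCm38.p6), and the 150 bases before their annotated starts are shown, 5′ to 3′ on the strand of the gene, because they belong to the genes that did change. Capitals mark CCAAT and CCACG on either strand (ATTGG and CGTGG on the opposite one). These letters make up the ends of the ER stress response element, ERSE, where they are 9 bases apart and where the stress factors ATF6 and XBP1 are known to bind. The stretch of Tmed9 is chr13:55592985-55593134 on the plus strand, that of Mcfd2 chr17:87265948-87266097 on the minus strand, and that of Ergic3 chr2:156007878-156008027 on the plus strand.
Tmed9: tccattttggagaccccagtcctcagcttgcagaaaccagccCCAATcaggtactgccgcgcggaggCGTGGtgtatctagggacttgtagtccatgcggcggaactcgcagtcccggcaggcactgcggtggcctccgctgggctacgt
Mcfd2: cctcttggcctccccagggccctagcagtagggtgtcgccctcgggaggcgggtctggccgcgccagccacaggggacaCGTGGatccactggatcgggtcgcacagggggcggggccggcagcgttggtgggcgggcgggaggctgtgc
Ergic3: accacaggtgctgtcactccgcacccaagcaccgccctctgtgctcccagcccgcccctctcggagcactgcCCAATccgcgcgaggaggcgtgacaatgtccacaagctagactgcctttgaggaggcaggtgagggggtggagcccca

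The Tmed9 stretch held 1 CCAAT and 1 CCACG on the opposite strand, the Mcfd2 stretch 1 CCACG and no CCAAT, and the Ergic3 stretch 1 CCAAT and no CCACG. This search for the ends alone was chosen after the values were seen. Of 32851 RefSeq promoters, 24.5% held CCAAT, 20% held CCACG and 4.8% held both within the same 150 bases. Tmed10 and Lman2, which were not called, held both as well. Of the other p24 genes, Tmed5, which was called higher, and 1 Tmed1 entry held both, while Tmed4, Tmed6 and Tmed8 did not. Over the full window of 250 bases before to 50 after the start, 7 of the 10 members had an entry, and 0 of the 7 held the whole ERSE (CCAAT, 9 bases of any kind, CCACG), ERSE-II (ATTGG, 1 base of any kind, CCACG), the core of the unfolded protein response element, UPRE (TGACGTGG), or the composite element of ATF4 (TGATGNAAT), each read on both strands. In all promoters these exact letters were found in 0.119%, 0.0365%, 0.676% and 0.965%, and no match says only that these letters are not in these windows.

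Tmed9, an alpha member of the p24 family, had the largest rise of the 10. Its log2 values were 6.62, 6.53, 6.83 and 6.77 in wild type replicates 1 to 4 and 7.71, 7.72, 7.94 and 7.84 in knockout replicates 1 to 4. Every knockout sample lay above every wild type sample. The difference was 1.11 (SE 0.0942, 95% interval 0.90 to 1.33, limma adjusted p = 7.53e-05), a 2.16-fold rise. It stayed between 0.95 and 1.16 under all 17 other settings, with the highest adjusted p at 0.000581.

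Tmed11, also an alpha member and a gene that survives only as a pseudogene in humans, changed in the opposite direction. It measured 9.95, 10.36, 9.85 and 10.59 in the wild type samples and 8.73, 9.62, 8.67 and 9.11 in the knockout samples. The groups did not overlap, and knockout replicate 2 and wild type replicate 3 came closest. The difference was -1.16 (SE 0.23, 95% interval -1.67 to -0.64, limma adjusted p = 0.00579), a 2.23-fold fall. Its SD of 0.349 in wild type and 0.438 in knockout samples was the widest of the 10 members, and leaving out single arrays gave differences between -1.35 and -1.02, all called.

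The beta and delta members, Tmed2 and Tmed10, known as core partners of p24 complexes, did not pass the test. Tmed10 measured 11.00, 11.12, 10.83 and 11.03 in wild type and 10.95, 10.94, 11.03 and 11.00 in knockout samples, and the knockout range lay within the wild type range. Its difference was -0.02 (0.03 without wild type replicate 2) with a 95% interval from -0.20 to 0.17 (limma adjusted p = 0.889), so a change as large as that of Tmed9 lies outside it. A dimmer Tmed10 feature gave -0.01. Whether either of the 2 features matches a similar copy rather than the Tmed10 gene itself is not given in the sources used here.

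Tmed2 lay between 11.97 and 12.12 in wild type and between 12.03 and 12.27 in knockout samples. The difference was 0.11 (95% interval -0.07 to 0.28, limma adjusted p = 0.328). The other 2 features annotated to Tmed2 gave 0.18 and 0.12, so all 3 pointed the same way without passing the test. The sources used here do not say which of these features match the Tmed2 gene itself and which a similar copy.

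Tmed3, a gamma member, was less clear. Its values were 9.60, 10.09, 9.86 and 9.84 in wild type and 10.05, 10.13, 10.19 and 10.15 in knockout samples, and 1 array decided the overlap: wild type replicate 2 lay above knockout replicate 1. The difference of 0.28 (SE 0.105, 95% interval 0.05 to 0.52) missed the threshold (limma adjusted p = 0.0691). Without wild type replicate 2 it was 0.36 and passed (adjusted p = 0.0224). It also passed among genes above the median level (0.0468), with trend and robust variance (0.0356) and with array weights (0.0415). Under the other 13 settings it did not pass, among them centring (0.18, adjusted p = 0.303), quantile normalization (0.24, 0.126) and cyclic loess (0.23, 0.14).

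Mcfd2, the soluble partner of Lman1, rose slightly. It measured 10.29, 10.49, 10.27 and 10.41 in wild type and 10.68, 10.54, 10.73 and 10.67 in knockout samples. The groups were separated by a narrow gap, between wild type replicate 2 and knockout replicate 2. The difference was 0.29 (SE 0.0821, 95% interval 0.11 to 0.48, limma adjusted p = 0.0261), a 1.22-fold rise. Leaving out any of 5 arrays ended the call: replicate 1 (0.27, adjusted p = 0.0552) or 3 (0.26, 0.0565) of the wild type, or replicate 1 (0.28, 0.0624), 3 (0.27, 0.076) or 4 (0.29, 0.0615) of the knockout. Quantile normalization (0.25, 0.0545) and centring (0.18, 0.19) ended it too. Tmed9 was then the single member called higher.

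Lman1, the membrane-spanning lectin of the pair, measured 11.47, 11.59, 11.58 and 11.54 in wild type and 11.70, 11.59, 11.73 and 11.56 in knockout samples. Here 2 of the knockout values lay within the wild type range. The difference was 0.10 (95% interval -0.07 to 0.27, limma adjusted p = 0.345). Lman2, a lectin of the same type that acts in the early secretory pathway, lay between 9.99 and 10.07 in wild type and between 10.08 and 10.19 in knockout samples. Its groups did not overlap, but the difference of 0.09 (95% interval -0.06 to 0.24) did not pass the test (limma adjusted p = 0.33). The differences of Tmed2, Lman1 and Lman2 were -0.00040, -0.01 and -0.02 after centring each array on its median, so the direction of these 3 was not fixed.

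Surf4, a receptor for a broad range of soluble secreted proteins, lay between 10.41 and 10.62 in wild type and between 10.61 and 10.77 in knockout samples. Wild type replicate 3 lay above knockout replicate 2, so the ranges overlapped. The difference was 0.15 (95% interval -0.03 to 0.33, limma adjusted p = 0.173).

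Ergic3, which cycles between the ER and the compartment that lies before the Golgi, fell. Its values were 10.75, 10.64, 10.51 and 10.62 in wild type and 10.25, 10.28, 10.32 and 10.38 in knockout samples, with every knockout sample below every wild type sample. The difference was -0.32 (SE 0.078, 95% interval -0.50 to -0.15, limma adjusted p = 0.0134), a 1.25-fold fall. It remained called under all 17 other settings, with differences from -0.43 to -0.28.

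**Figure D2:**
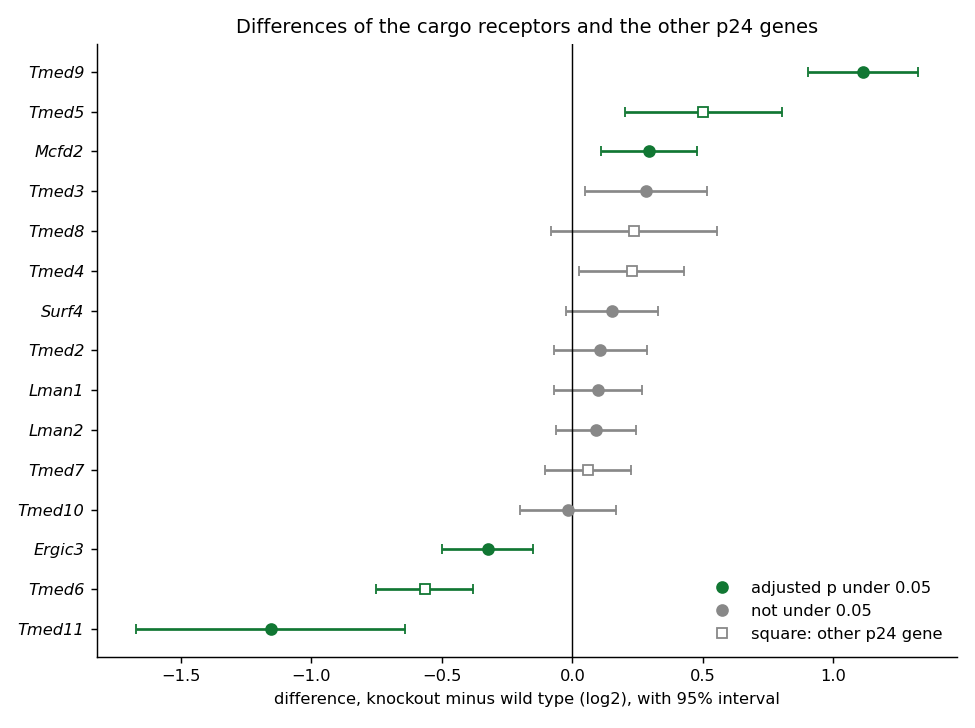
Difference of knockout minus wild type on the log2 scale, with its 95% interval from limma, for the 10 members (circles) and the other 5 p24 genes measured (squares); green marks an adjusted p under 0.05. Tmed9 lies at one end with 1.11 and Tmed11 at the other with -1.16, and the intervals of 7 genes between them include 0.

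Whether genes of known complexes or subfamilies changed unequally was compared within arrays, as the log2 difference between 2 genes on the same array, for 5 pairs. Only the shift of that difference between the groups is given, since the levels of different features cannot be compared. These pairs were chosen when the rise of Tmed9 was already known. The p-values of its pairs with Tmed10 and Tmed4 therefore largely restate that rise, and the adjustment over the 5 pairs counts them too. Tmed9 minus Tmed10 shifted by 1.13 between the groups, and Tmed9 minus its fellow alpha member Tmed4 by 0.89. Lman1 minus Mcfd2 shifted by -0.19, with SDs of 0.0894 in wild type and 0.07 in knockout samples (n = 4 each), that is, Mcfd2 gained on Lman1 on these arrays. Tmed3 minus Tmed10 shifted by 0.30. In each of these 4 pairs the groups did not overlap (two-sided exact permutation test, p = 0.0286, which is the lowest this design allows, and 0.0357 after Benjamini-Hochberg adjustment over the 5 pairs). Tmed2 minus Tmed10 shifted by 0.12, with overlapping groups (exact permutation p = 0.0857, adjusted 0.0857). A shift of this kind is unaffected by centring arrays, since both genes of a pair move together.

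**Figure D3:**
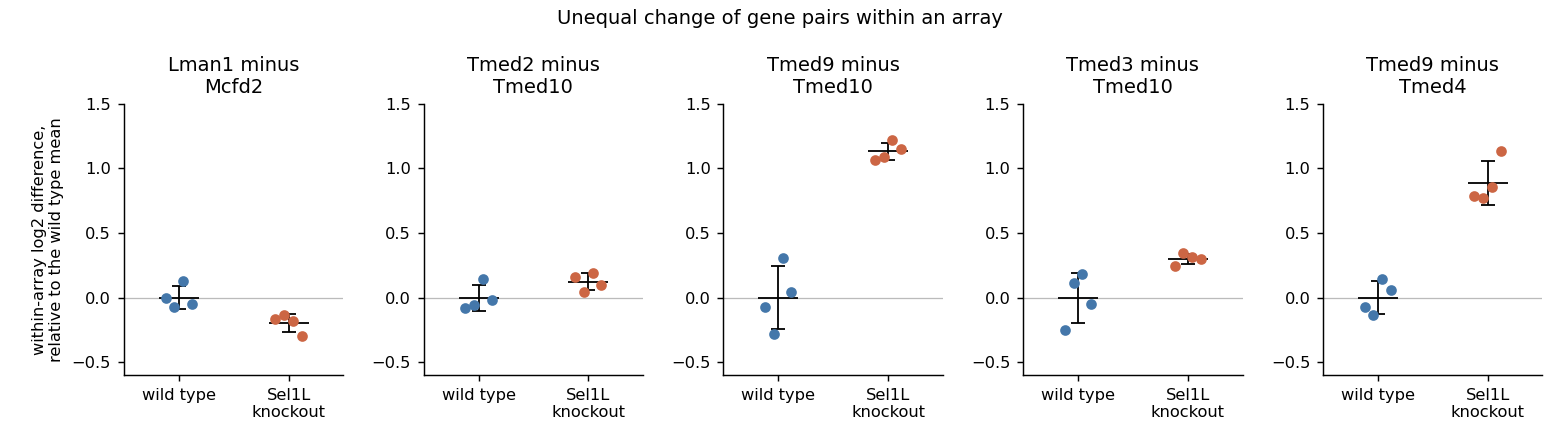
Difference between 2 genes on the same array (log2), set relative to the wild type mean of that pair, for each of the 5 pairs and 8 arrays, with mean and SD (n = 4 each). Tmed9 gained 1.13 on Tmed10 and 0.89 on Tmed4, while Tmed2 minus Tmed10 overlapped between the groups.

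Of the other p24 genes, 5 of 6 listed were measured (Tmed1 had no feature of its own here). Of the 5, 1 rose and 1 fell, with a median difference of 0.23. The 2 of 5, or 40%, compare with 28.7% called over all genes in either direction. All 5 lay above the median level, and of the 9410 genes there, tested by themselves, 4176 were called. Tmed6, a gamma member with high signal in this tissue, fell from 12.31 ± 0.077 to 11.74 ± 0.107 (SD, n = 4 each), a difference of -0.57 (SE 0.0829, limma adjusted p = 0.00124), with no overlap between the groups. Tmed5, another gamma member, measured 6.84, 6.94, 7.14 and 7.40 in wild type and 7.59, 7.54, 7.81 and 7.39 in knockout samples. Its rise of 0.50 (SE 0.135, limma adjusted p = 0.0214) did not pass without replicate 1 of the wild type (0.42, adjusted p = 0.0526) or replicate 3 of the knockout (0.43, 0.063), after quantile normalization (0.34, 0.0821) and after cyclic loess (0.35, 0.0718). The alpha member Tmed4 differed by 0.23 (95% interval 0.03 to 0.43, limma adjusted p = 0.0853); knockout replicate 4, at 10.43, lay within the wild type range, and without it the difference was 0.30 (adjusted p = 0.0333). Tmed7 differed by 0.06 (adjusted p = 0.553) and Tmed8, whose product shares a domain with the family, by 0.24 (adjusted p = 0.234). Within the alpha class 1 gene thus rose, 1 fell and 1 was not called, and within the gamma class 1 rose, 1 fell and 2 were not called.

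The 3 falls in these families, Tmed11, Tmed6 and Ergic3, coincided with lower acinar markers. Of 8 acinar markers measured, 4 were lower in limma, or 50% against 12.6% of all genes, and the mean over the list was 12.80 to 12.96 on wild type and 12.57 to 12.65 on knockout arrays. Of 7 ductal markers 1 was lower, of 8 islet markers 1 was higher and 1 lower, and of 7 lymphocyte markers 1 was lower, shares near the 12.6% lower and 16.1% higher of all genes. Of 6 endothelial markers 4 were higher, or 66.7% against 16.1%, with list means of 7.14 to 7.34 on wild type and 7.45 to 7.72 on knockout arrays. All 6 lay above the median level, where 3013 of 9410 genes were higher when tested by themselves. The list means of macrophage markers were 6.10 to 8.43 on wild type and 7.25 to 8.24 on knockout arrays, those of stellate cell and fibroblast markers 7.07 to 8.67 and 7.94 to 8.70, and those of adipocyte markers 3.28 to 3.54 and 3.39 to 3.63. The part of cell composition in the falls was not tested.

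Among 17 other ER export and retrieval receptors measured, 6 rose in limma, or 35.3% against a background of 16.1% called higher, with a median difference of 0.19 against -0.04 over all genes. Of these receptors 14 lay above the median level, and 7 of the 14 rose when genes of that level were tested by themselves. Over all 9410 genes of that level 3013 rose, and the median difference was 0.13. Bcap29 and Bcap31, paired ER membrane proteins that help sort and export membrane proteins, rose by 0.48 (SE 0.0762, limma adjusted p = 0.00182) and 0.48 (SE 0.106, limma adjusted p = 0.00889). Both calls held under every one of the 17 other settings. Ctage5, which acts in the export of collagens and other large cargo, rose by 0.29 (SE 0.0756, limma adjusted p = 0.018), but not without knockout replicate 3 (0.26, adjusted p = 0.0582) or after centring (0.19, adjusted p = 0.145). Without knockout replicate 3 the list had 2 rises and without knockout replicate 4 it had 3, and centring gave 2 rises and 2 falls. Quantile normalization and cyclic loess each gave 3 rises and 1 fall.

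The p24 proteins carry GPI-anchored cargo, and all 9 genes listed here for attaching or remodelling the anchor were measured. Of these, 3 rose and 1 fell, or 44.4% called against 28.7% over all genes, with a median difference of -0.02 and a mean of 0.10. Of the 9, 8 lay above the median level. When the 9410 genes of that level were tested by themselves, 3 of the 8 rose and 1 fell, and 4176 of the 9410 were called. After quantile normalization or centring 1 rise was left, that of Pigu. Pigu, a subunit of the enzyme that attaches the anchor, rose from 8.16 ± 0.0378 to 8.71 ± 0.0872 (SD, n = 4 each), by 0.55 (SE 0.0746, limma adjusted p = 0.000815). Pgap3, which acts on the lipid of the anchor in the Golgi, rose by 0.50 (SE 0.12, limma adjusted p = 0.013); after quantile normalization it was 0.39 (adjusted p = 0.0797) and after centring 0.40 (adjusted p = 0.0507). Pgap2, which acts on the anchor after Pgap3, rose by 0.33 (SE 0.105, limma adjusted p = 0.0427), but this call was kept without replicate 3 or 4 of the wild type and lost without any other array, with differences from 0.24 to 0.35 and adjusted p from 0.0639 to 0.106. Pgap1, which remodels the anchor in the ER, was the 1 fall, at -0.28 (SE 0.0953, limma adjusted p = 0.0495). Leaving out any array other than replicate 1 of the wild type ended that call, with differences from -0.32 to -0.23 and adjusted p from 0.0673 to 0.123. Array weights (-0.27, adjusted p = 0.0555) and a replicate block (-0.28, 0.0624) ended it too. The call was kept after quantile normalization (-0.44, 0.0102), cyclic loess (-0.44, 0.00913) and centring (-0.39, 0.0285).

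Of 8 genes listed for proteins known to travel with these receptors, 6 were measured, and 2 rose in limma, or 33.3% against 16.1% called higher over all genes, with a median difference of 0.00. Of the 6, 3 lay above the median level, and 1 of these 3 rose when the 9410 genes of that level were tested by themselves, as did 3013 of the 9410. F8, the gene of coagulation factor VIII and so of a cargo of Lman1 and Mcfd2, rose from 5.05 ± 0.198 to 5.86 ± 0.129 (SD, n = 4 each), by 0.80 (SE 0.113, limma adjusted p = 0.00102). The wild type level of F8 lay below the arrays' medians over all genes, which were 5.35 to 5.50 there. Endothelial cells are a known source of factor VIII, and 4 of 6 endothelial markers were higher (7.14 to 7.34 on wild type and 7.45 to 7.72 on knockout arrays as list means); their part in the rise was not tested. Ctsc, the gene of cathepsin C, another cargo of Lman1, rose by 0.67 (SE 0.101, limma adjusted p = 0.00149). F5, the gene of coagulation factor V, measured 3.42 in wild type and 3.25 in knockout samples, below those medians in both groups.

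**Figure D4:**
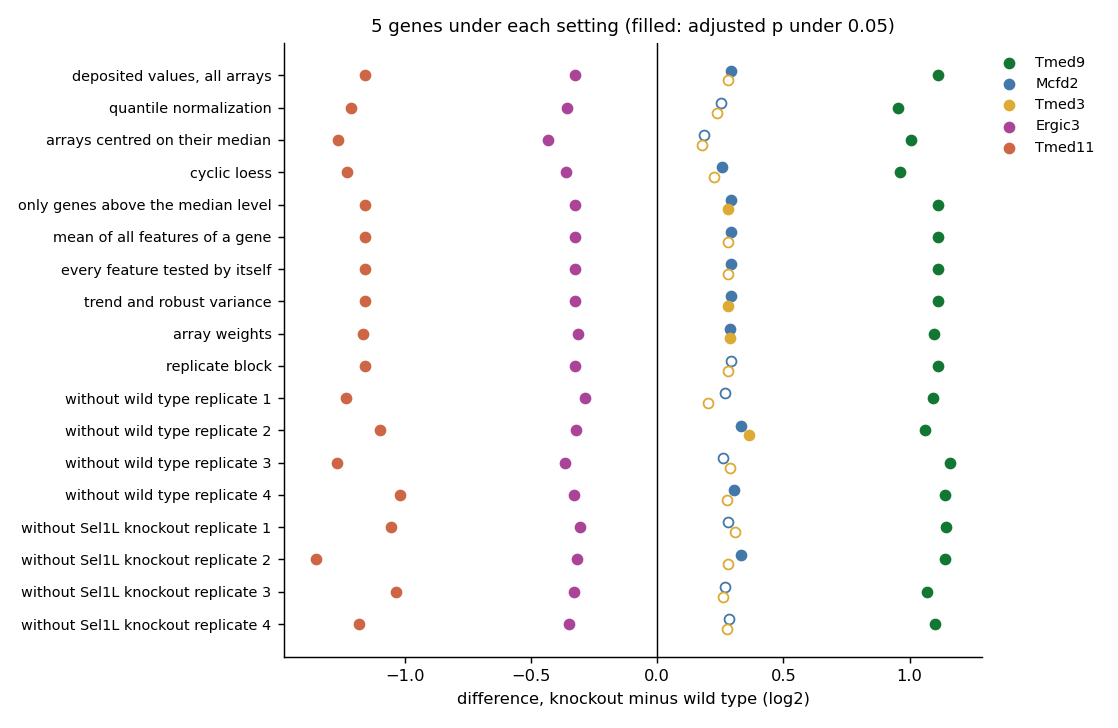
Difference of knockout minus wild type (log2) of 5 members under the deposited values and each of 17 other settings; filled points have an adjusted p under 0.05 and open points do not. Tmed9, Ergic3 and Tmed11 stay filled throughout, while Mcfd2 and Tmed3, both near 0.28, pass under some settings and not under others.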

How the data were processed

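RNA of 4 wild type and 4 Sel1L knockout pancreas samples was labelled with biotin after whole-transcript cDNA synthesis from 100 ng, per the labels' protocols. Per the submitters' processing notes the authors used RMA, which corrects background, normalizes arrays by quantiles and summarises probes, so the deposited values were taken as log2 (range 0.964 to 14.37, log base not named in the header). How the chip was defined, which arrays were run together and in which RMA version was not given in the sources used here; precision is limited by the number of arrays.

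GEO's platform annotation gave 1 symbol to 21218 of 35556 features, several to 1881 and none to 12457; only the first were used, and the brightest feature of a gene was kept (18820 genes). Symbols were checked by Entrez identifier in RefSeq's GRCm38.p6 table (21185 found, 0 changed). Genotype was fitted on all genes with limma 3.58.1 in R 4.3.3 (lmFit and eBayes, unfiltered), with Benjamini-Hochberg adjustment over all genes. Settings tried were quantile normalization, centring, cyclic loess, genes above the median level, averaging features or testing each, array weights, a variance trend with robust estimation, a replicate block and each array left out. The computation was tested on simulated data. Pairs were tested by exact permutation in scipy 1.17.1, and figures drawn with matplotlib 3.10.9. The members and lists were chosen with earlier results of these data known. Named genes were Sel1l, the members, the other p24 genes and up to 4 genes with the smallest p in each other pathway list; marker genes illustrate their lists.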

Additional observations from a re-analysis of the deposited data

Results flagged for a closer look

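Sel1l in Sel1L knockout replicate 4 measured 11.45 on the log2 scale, below the other knockout samples at 11.66 to 11.70; the gap took 0.862 of the group's range, above Dixon's 95% critical value for 4 samples. It was the only such value among 32 groups checked, where chance alone gives about 1 in 20. In that sample Tmed9 was at 7.84 and Tmed11 at 9.11, both within the range of the other knockout samples.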

How the results depend on the processing

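Over 17 other settings, 3 to 5 of the 10 members were called; Tmed9, Tmed11 and Ergic3 were called under every one, so the number lower was always 2. The number higher was 1 after quantile normalization, after centring and with a replicate block, and 1 to 3 when single arrays were left out. Over all genes, 1954 were higher after quantile normalization and 1868 after centring, against 3027, and 4014 were lower after centring and 1163 among genes above the median level, against 2379; the last setting tests fewer genes. Leaving out single arrays gave 1517 to 2371 lower genes, the lowest without knockout replicate 3. Differences turned sign for Tmed2 (-0.00040), Lman1 (-0.0085), Lman2 (-0.016) and Tmed7 (-0.047) after centring, and for Tmed10 without wild type replicate 2 (0.026, with -0.072 as the lowest value without 1 array); none of these was called. The causes were not tested. The labels give both groups replicate numbers 1 to 4, but deviations of same-numbered samples correlated between -0.27 and 0.22 across genes, so the numbers were not taken as pairs. With the replicate block 4678 genes were called against 5406, and Sel1l (-0.76, adjusted p = 0.00262), Tmed9, Tmed11 and Ergic3 remained called while Mcfd2 did not (adjusted p = 0.0704). With 1 array left out, the exact test of a pair cannot go below p = 0.0571; the 5 shifts kept their sign.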

Other observations

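Knockout replicate 3 held the highest value of the 4 knockout samples for 7 of the 10 cargo receptor members (Tmed2, Tmed3, Tmed9, Tmed10, Surf4, Lman1 and Mcfd2), and for 24.8% of all genes tested. It held the lowest for Tmed11. Among wild type samples, replicate 2 was the highest for 5 members, against 28.4% of all genes. These are descriptions of single samples, and no test was made of them.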
